A study of Mus musculus with 4 samples.

Results

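The TH17 and IL-22 program was followed in mouse T cells, without and with BATF3, that had been cultured toward the TH9 state. It was represented by 9 genes, Il22, Il17a, Il17f, Il21, Rora, Ahr, Il23r, Ccr6 and Ccl20. They were taken by symbol from a table of estimated counts that lists 25509 genes, and all 9 had a row. RNA was sequenced from naive splenic CD4+ T cells, sorted as CD25-negative, CD62L-high and CD44-low, after 72 h with antibodies to CD3 and CD28, the cytokines TGFb and IL-4, and TL1A, a TNF-family cytokine. There were 2 libraries of Batf3-/- cells and 2 of WT cells, and both genotypes received the same treatment. Which part of Batf3 is deleted, whether it is lost in T cells alone and whether replicates came from separate mice is not stated in the labels. The p-values therefore reflect no more than the spread among these 4 samples.

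TH17 cells are helper T cells that form when TGF-beta acts together with inflammatory cytokines such as IL-6, under nuclear receptors of the ROR family such as ROR-alpha (gene Rora). They secrete IL-17A and IL-17F, which recruit neutrophils, and IL-22, which acts on epithelial cells. IL-22 is also made by TH22 cells, gamma-delta T cells and innate lymphoid cells, and the aryl hydrocarbon receptor AHR is known to favour its transcription. TH9 cultures share TGF-beta with TH17 cultures but receive IL-4 in place of IL-6. BATF3, which was removed here, is a basic leucine zipper factor that binds AP-1-type sites, as does its relative BATF, a factor that TH17 cells require.

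Library totals ranged from 15624874 counts (Batf3-/- replicate 2) to 31098059 (Batf3-/- replicate 1). Batf3 itself stood at 0.535 and 0.517 CPM, counts scaled to the TMM-adjusted library total, in the Batf3-/- libraries, against 61.7 and 60.5 CPM in the WT libraries, as the labels imply. Of 7 CD4 T cell markers with a row, all were expressed, with a summed level of 2265 and 2268 CPM in Batf3-/- cells and 2405 and 2228 CPM in WT cells. The NK markers Ncr1, Klrb1c and Klra8, the B cell marker Ms4a1, and the myeloid markers Lyz2 and Clec9a were at 0 in all 4 libraries. Other markers of these lists were detected at low levels: the 8 myeloid markers summed to 7.88 and 6.86 CPM in Batf3-/- cells and 9.65 and 8.08 CPM in WT cells, most of it from Zbtb46 (5.16 and 4.91 CPM, against 7.24 and 5.43 CPM in WT cells). The 5 NK markers summed to 1.04 and 1.10 CPM in Batf3-/- cells and 0.686 and 1.13 CPM in WT cells, most of it from Prf1. The 5 B cell markers summed to 10.2 and 12.3 CPM in Batf3-/- cells and 13.2 and 9.87 CPM in WT cells. Most of this was Cd79b, at 9.97 and 12.2 CPM in Batf3-/- cells against 13.1 and 9.62 CPM in WT cells. The CD8 T cell marker Cd8b1 stood at 7.33 and 7.24 CPM in Batf3-/- cells against 8.91 and 8.31 CPM in WT cells. The part of these transcripts in the results was not tested. WT replicate 1 stood slightly apart: over 12135 tested genes its correlation with each other library, in log2 CPM, was 0.971 to 0.976, against 0.981 or more among the other 3. Replicate numbers 1 and 2 differed in Xist in both genotypes (0.0944 and 144 CPM in Batf3-/- cells, 0.214 and 166 CPM in WT cells). The replicates of a genotype were thus not repeat libraries of the same material. Y-linked genes summed to 243 and 182 CPM in Batf3-/- cells and 344 and 146 CPM in WT cells. RNA of male cells was therefore present in every library, also in those with Xist. The titles also carry the code E85 on both replicate 1 libraries and E87 on both replicate 2 libraries, with no statement of what the codes mark. Changes are therefore also given within each replicate number.

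The program was split in these cultures. Il21, Rora, Ahr and Ccr6 were clearly expressed in both genotypes, Il17f and Il22 were low, and Il17a, Il23r and Ccl20 had 0 to 7 counts in each library. Of the 9 genes, 6 had enough counts to be tested, and 0 passed edgeR's quasi-likelihood test at an adjusted p of 0.05, while 1, Il22, had an unadjusted p under 0.05. Over all 12135 tested genes 0.132% passed, and the share under the unadjusted threshold was 4.80%. DESeq2 and limma-voom also called 0 of the 6. Il22 came nearest, with a level 4.19-fold higher in Batf3-/- cells on the fitted scale.

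**Figure D1:**
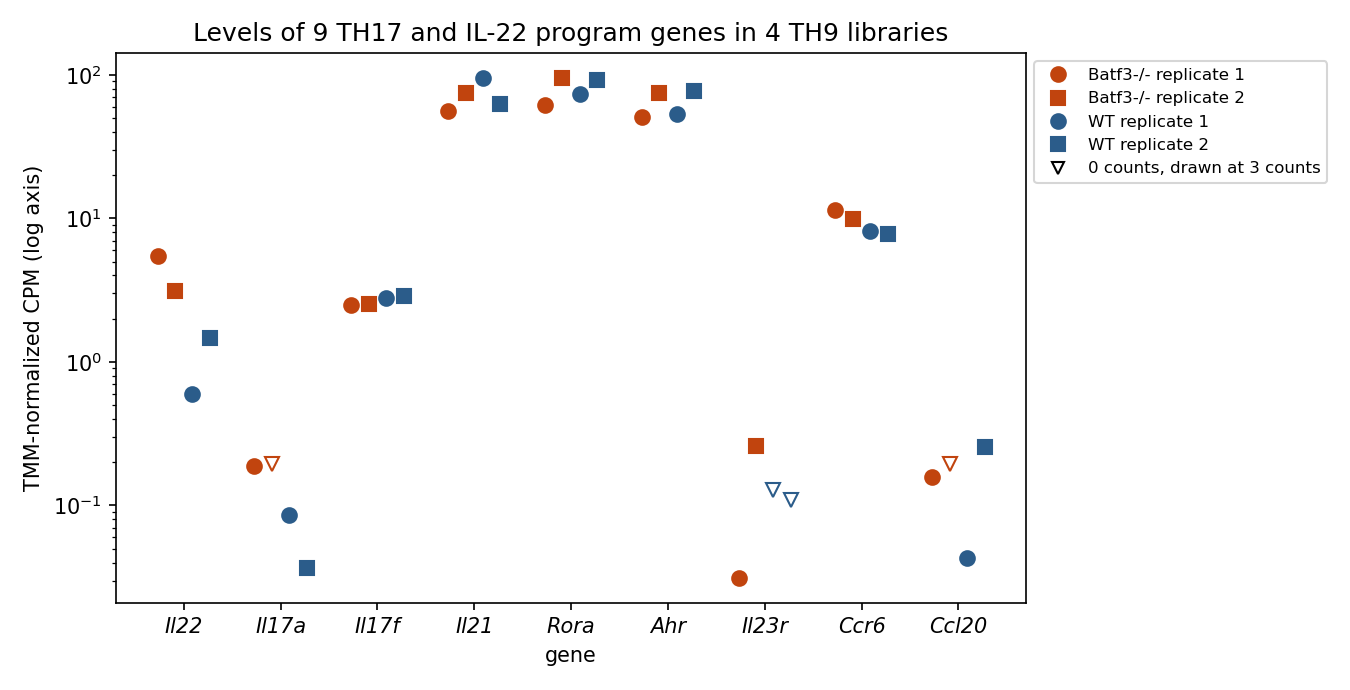
Level of each of the 9 genes in each library, in TMM-normalized CPM on a log axis, with Batf3-/- libraries in orange and WT libraries in blue. Open triangles mark libraries with 0 counts, drawn at the level that 3 counts would give. Il21, Rora and Ahr sit between 50.8 and 94.96 CPM, and Il17a, Il23r and Ccl20 do not exceed 0.259 CPM.

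Il22 (ENSMUSG00000074695.3, GRCm38 chromosome 10, 118204942 to 118210047, protein coding) encodes interleukin 22. It had 172.86 and 48 counts in Batf3-/- replicates 1 and 2, against 14 and 40 counts in WT replicates 1 and 2. These are 5.44 and 3.10 CPM in Batf3-/- cells and 0.5999 and 1.46 CPM in WT cells. Both Batf3-/- libraries lay above both WT libraries, with WT replicate 1 the lowest of the 4. In bulk RNA a change in the number of cells that express a gene and a change in RNA per cell cannot be told apart.

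The mean level of Il22 was 4.27 ± 1.65 CPM in Batf3-/- cells and 1.03 ± 0.606 CPM in WT cells (SD, n = 2 each). Its log2 fold change was 2.07 (SE 0.429, 95% interval 1.17 to 2.97), with an unadjusted p of 1.26e-04 and an adjusted p of 0.0733 in edgeR's quasi-likelihood test. By unadjusted p it ranked 20 among the 12135 tested genes, and it missed the threshold. With the replicate number as a block it passed (log2 fold change 2.05, adjusted p = 7.6e-05, edgeR), but the labels do not state that the numbers pair the libraries. The log2 ratio was 3.14 within replicate number 1 and 1.08 within replicate number 2. The size of such a ratio depends on which libraries are paired, which the labels do not state. Its direction does not, since each Batf3-/- library lay above each WT library. With WT replicate 2 left out the estimate was 2.88 (adjusted p = 4.32e-04, edgeR), and without Batf3-/- replicate 2 it was 2.37 (adjusted p = 0.00151, edgeR), both past the threshold. It was 1.59 without WT replicate 1 (adjusted p = 0.0597) and 1.56 without Batf3-/- replicate 1 (adjusted p = 1.000, edgeR), both short of it. Each of these fits leaves 1 library in a genotype, assumed to vary like the other, and without WT replicate 2 the test called 553 genes in all.

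C57BL/6 mice carry a near-copy of Il22 named Iltifb on the same chromosome, and a short read may come from either gene. The annotated transcripts are 97.3% identical, with 29 substitutions and 1 gap position, and 29.9% of the 75-base windows of the Il22 transcript also occur in Iltifb. The pair is shown because these differences are what allows the counts to be assigned. A 60-base coding stretch with the most differences, bases 158 to 217 counted from the first base of the start codon, is printed 5′ to 3′ from GENCODE M21 on GRCm38, with differing bases in capitals.
Il22: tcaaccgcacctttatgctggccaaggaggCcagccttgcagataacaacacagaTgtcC
Iltifb: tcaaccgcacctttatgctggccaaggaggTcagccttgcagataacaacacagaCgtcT
The substitutions from Il22 to Iltifb are C188T, T213C and C217T. Iltifb was given 1.14 counts in Batf3-/- replicate 1 and 0 in the other 3 libraries. In Batf3-/- replicate 1 the estimates of the pair added up to 174 reads, and in the other libraries Il22 had whole numbers. The Il22 counts can therefore include reads that fit both copies, and adding Iltifb to Il22 raises no library by more than 1.14 counts.

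The other secreted products of the program were at very different levels. Il17f (chromosome 1, 20777146 to 20790617) and Il17a (chromosome 1, 20730905 to 20734496) are neighbouring genes that encode the subunits of the IL-17A and IL-17F dimers. Il17f had 79 and 39 counts in Batf3-/- libraries and 65 and 79 in WT libraries. Il17a had 6 and 0 counts in Batf3-/- libraries and 2 and 1 in WT libraries, too few to test. Il17f thus took 92.9% and 100% of the counts of this pair in Batf3-/- replicates 1 and 2, with exact 95% binomial intervals of 85.3% to 97.4% and 91.0% to 100%. In WT replicates 1 and 2 it took 97.0% and 98.8%, with intervals of 89.6% to 99.6% and 93.2% to 99.97%. Such intervals cover counting error only. Il17f dominated in every library, on coding transcripts of similar length (1178 and 1171 bases).

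In Il17f the level was 2.49 and 2.52 CPM in Batf3-/- cells, against 2.79 and 2.88 CPM in WT cells. The libraries did not overlap, but the difference did not pass (log2 fold change -0.18, SE 0.344, 95% interval -0.90 to 0.54, adjusted p = 0.973, edgeR). Il17f, Il22 and Ccr6 were the 3 of 6 tested members whose genotypes did not overlap, against 33.8% of all tested genes.

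Il21 (chromosome 3, 37222759 to 37232636) encodes interleukin 21, which TH17 and follicular helper T cells secrete and which acts back on T cells. It stood at 56.3 and 74.3 CPM in Batf3-/- replicates 1 and 2, against 94.96 and 62.3 CPM in WT replicates 1 and 2. The highest and the second-lowest library were both WT, so the genotypes overlapped. The log2 fold change was -0.27 (SE 0.219, 95% interval -0.73 to 0.19, adjusted p = 0.958, edgeR). Within replicate number 1 the log2 ratio was -0.75 and within replicate number 2 it was 0.25, and without WT replicate 1 the fitted value was 0.05.

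Ccl20 (chromosome 1, 83116766 to 83119167), the chemokine ligand of CCR6, had 5 and 0 counts in Batf3-/- libraries and 1 and 7 counts in WT libraries. The level of 3 counts lay between 0.0944 and 0.194 CPM depending on the library. The highest level of Ccl20 was 0.255 CPM in WT replicate 2 (7 counts), where 3 counts give 0.109 CPM. No direction can be read from such low counts. The receptor side of this pair was expressed: Ccr6 (chromosome 17, 8236043 to 8257141) stood at 11.5 and 9.89 CPM in Batf3-/- cells, against 8.18 and 7.72 CPM in WT cells. Both Batf3-/- libraries were higher, with log2 ratios of 0.49 and 0.36 within replicate numbers 1 and 2. The fitted log2 fold change was 0.44 (SE 0.249, 95% interval -0.08 to 0.96, adjusted p = 0.958, edgeR), which did not pass.

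Il23r (chromosome 6, 67422932 to 67491855) encodes the subunit that makes TH17 cells responsive to IL-23. It had 1 and 4 counts in Batf3-/- libraries and 0 and 0 in WT libraries, which allows up to 0.129 and 0.109 CPM in WT replicates 1 and 2. At this depth a difference was not detectable. The partner subunit Il12rb1, shared with the IL-12 receptor, was abundant at 150 and 186 CPM in Batf3-/- cells, against 106 and 146 CPM in WT cells. Its log2 fold change was 0.41 (SE 0.203, adjusted p = 0.958), 0.16 with GC correction, 0.66 without WT replicate 2 (adjusted p = 0.0369) and 0.19 without WT replicate 1 (adjusted p = 0.952, edgeR).

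The transcription factor genes of the program were expressed at similar levels in both genotypes. Rora (chromosome 9, 68653786 to 69388246) stood at 62.0 and 94.7 CPM in Batf3-/- cells, against 73.7 and 92.6 CPM in WT cells. Ahr (chromosome 12, 35497974 to 35535038) stood at 50.8 and 74.7 CPM in Batf3-/- cells, against 53.6 and 76.5 CPM in WT cells. For both, replicate 2 was above replicate 1 in each genotype, and the genotypes overlapped. The log2 fold changes were -0.09 for Rora (SE 0.215, 95% interval -0.54 to 0.36) and -0.06 for Ahr (SE 0.223, 95% interval -0.53 to 0.41), with adjusted p of 0.976 and 0.987 in edgeR. After a correction for GC content they were 0.0745 and 0.025, so both changed sign.

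**Figure D2:**
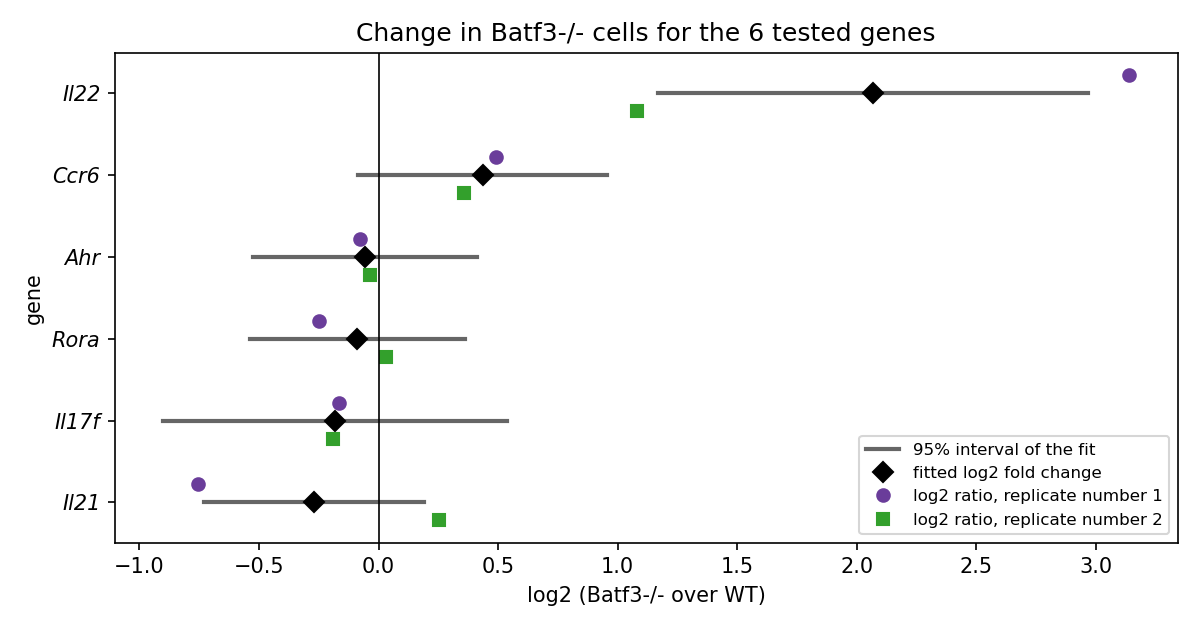
Change in Batf3-/- cells relative to WT on the log2 scale for the 6 tested genes: diamonds are fitted log2 fold changes, grey lines their 95% intervals, circles and squares the log2 ratios within replicate numbers 1 and 2. Il22 alone has an interval that does not include 0, with ratios of 3.14 and 1.08, and the ratios of Il21 and Rora lie on both sides of 0.

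Levels of different genes were compared per kilobase of the longest annotated coding transcript. Il21 was at 21.2 ± 4.14 CPM per kilobase in Batf3-/- cells and 25.6 ± 7.51 in WT cells (SD, n = 2 each). Ahr followed at 11.3 ± 3.04 in Batf3-/- cells and 11.7 ± 2.93 in WT cells, then Rora at 7.20 ± 2.12 and 7.64 ± 1.23, on the same scale. Ccr6 came next at 6.10 ± 0.655 in Batf3-/- cells and 4.53 ± 0.185 in WT cells. Ahr and Rora differed by less than their summed SDs in Batf3-/- cells, as did Rora and Ccr6, so these neighbours have no firm order. The mean levels of Il22 and Il17f changed places between genotypes on this scale. Il22 was at 3.85 ± 1.49 in Batf3-/- cells and 0.927 ± 0.546 in WT cells. Il17f was at 2.12 ± 0.0213 and 2.40 ± 0.0559 CPM per kilobase. Il17a, Il23r and Ccl20 were at most 0.105 CPM per kilobase in either genotype. The order of Il21, Ahr, Rora and Ccr6 was the same over merged exons but not over each gene's shortest coding transcript, where Rora and Ccr6 stood above Ahr. On that shortest-transcript scale, Batf3-/- replicate 2 had Il17f at 3.06 and Il22 at 2.80 CPM per kilobase, so Il22 was not above Il17f in that library.

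ROR-alpha, the product of Rora, binds a half-site on DNA, and Rora was expressed although Il17a, Il23r and Ccl20 were nearly silent. The 300-base promoters of the program genes, 250 bases before to 50 after the RefSeq start on GRCm38.p6, were searched on both strands for the ROR half-site AGGTCA, the AP-1 site TGANTCA and the AHR core GCGTG, and no matches in these genes overlapped. A promoter was given for 8 of the 9 genes (Ahr was the exception), with a pair of starts for Ccr6.

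The ROR half-site was found in 5 of the 8 genes, against 18.1% of all 27025 genes with a promoter. The 5 were Il17a, Il17f, Il23r, Ccr6 and Ccl20, which include the 3 nearly silent genes. They are shown to set the letters beside the levels: each 30-base window runs 5′ to 3′ in the direction of the gene, with the match in capitals, AGGTCA on the gene's strand or TGACCT on the opposite one.
Il17a, chr1:20730773-20730802, plus strand: gtggttctgtgcTGACCTcatttgaggatg
Il17f, chr1:20784311-20784340, minus strand: cagtcagtaaggAGGTCAgtggaaacaggg
Il23r, chr6:67491904-67491933, minus strand: aaatgaaaatgtAGGTCAgggctctgctga
Ccr6, chr17:8235987-8236016, plus strand: cagtgaaatcatTGACCTagttacataagt
Ccl20, chr1:83116580-83116609, plus strand: ccaccccccaccTGACCTtcacaccttctc
These matches began 120, 58, 66, 44 and 174 bases before the start in the order listed, and Il23r held another at 229. The AP-1 letters occurred in Il17a alone, against 8.97% of all genes with a promoter, and the AHR core in Ccl20, Il21 and Rora, against 35.2%. Il22 held none of these letters in its window. The search for the ROR half-site required AGGTCA alone and nothing of the bases before it, so a match does not identify a site of ROR factors. A match is a description of the letters and not evidence of binding.

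Among other genes of AHR signalling, 7 of 10 had enough counts to be tested, and 0 passed in either direction, with 1 at an unadjusted p under 0.05 in edgeR, against 4.80% of all tested genes. That gene was Cyp1a1, a cytochrome P450 gene and classical AHR target, with 31 and 26 counts in Batf3-/- libraries and 8 and 3 counts in WT libraries. These are 0.9753 and 1.68 CPM in Batf3-/- cells, against 0.343 and 0.109 CPM in WT cells. Both Batf3-/- libraries were higher, as for Il22, but here the larger log2 ratio was within replicate number 2 (3.71, against 1.45 within replicate number 1). The fitted log2 fold change was 2.49 (SE 0.684, unadjusted p = 0.00161, adjusted p = 0.336, edgeR), which did not pass.

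The other AHR genes differed less between genotypes. Tiparp, another AHR target, stood at 49.2 and 65.9 CPM in Batf3-/- cells, against 91.4 and 59.2 CPM in WT cells (log2 fold change -0.39, adjusted p = 0.958, edgeR), at -0.67 without WT replicate 2 (adjusted p = 0.0339), -0.0545 without WT replicate 1 (adjusted p = 0.998) and -0.17 with GC correction. The AHR repressor gene Ahrr stood at 1.98 and 3.68 CPM in Batf3-/- cells, against 2.27 and 2.04 CPM in WT cells, overlapping. Cyp1b1 and Nqo1 had 10 counts or fewer in every library. The list's median log2 fold change was -0.01, and that of all tested genes was also -0.01.

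**Figure D3:**
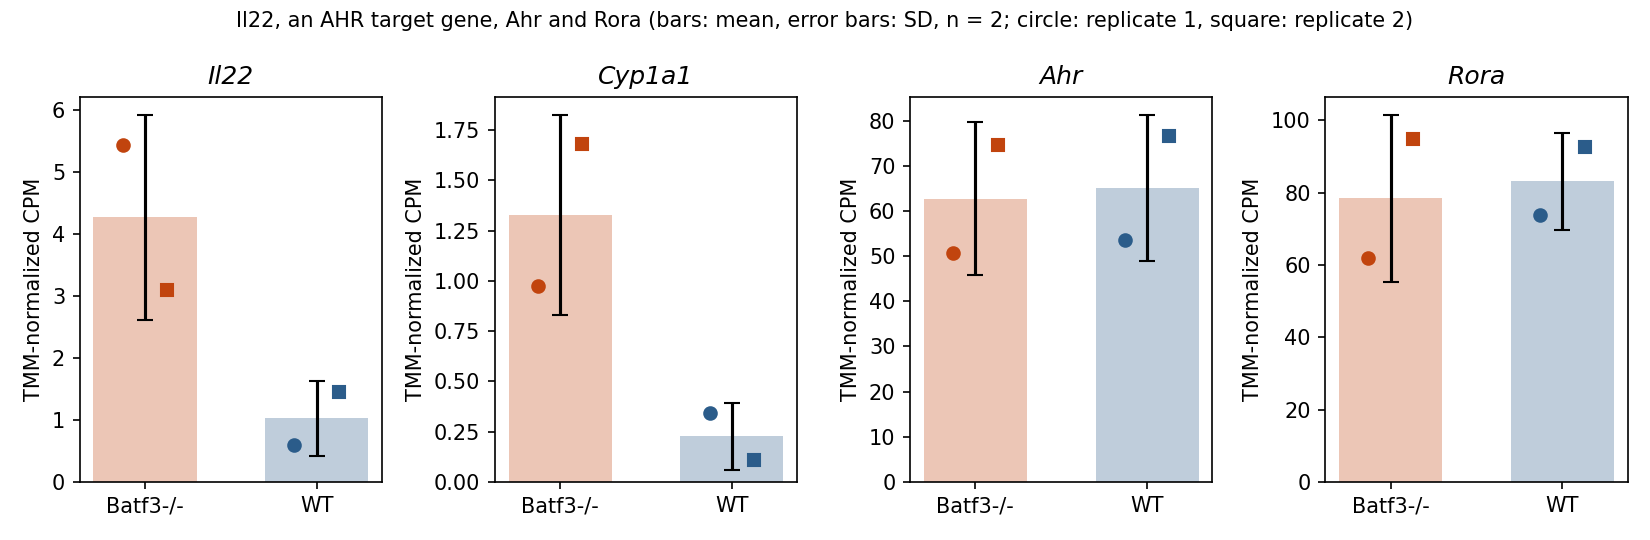
Level in TMM-normalized CPM of Il22, Cyp1a1, Ahr and Rora, with Batf3-/- left of WT; bars are means, error bars SDs of 2 libraries, circles replicate 1 and squares replicate 2. Il22 and Cyp1a1 are higher in both Batf3-/- libraries (4.27 against 1.03 CPM on average for Il22), while the libraries of Ahr and Rora overlap.

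Of 11 other transcription factors grouped under TH17 induction, all were tested and 0 passed in edgeR. Their log2 fold changes were positive for 4 and negative for 7 (median -0.06). The grouping does not establish that each gene promotes the TH17 state, Vdr among them. The vitamin D receptor gene Vdr had the smallest p, at 25.6 and 28.8 CPM in Batf3-/- cells against 15.6 and 17.0 CPM in WT cells. Its log2 fold change was 0.74 (SE 0.212, adjusted p = 0.429), with ratios of 0.72 and 0.76 within replicate numbers 1 and 2. With 1 library left out, the change in Vdr ran from 0.66 (without Batf3-/- replicate 2) to 0.82 (without Batf3-/- replicate 1). Ikzf3, the gene of the Ikaros-family factor Aiolos, was at 12.6 and 18.0 CPM in Batf3-/- cells and 15.9 and 20.7 CPM in WT cells (log2 fold change -0.27, between -0.0219 without Batf3-/- replicate 1 and -0.54 without Batf3-/- replicate 2). STAT3, the factor activated by IL-6, IL-21 and IL-23, had RNA at 721 and 967 CPM in Batf3-/- cells and 772 and 932 CPM in WT cells.

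Of 10 factors grouped under restraint of TH17 development 9 were tested (Twist1 had at most 1 count), and 0 passed in edgeR. Here too the grouping does not establish that each gene has this role. An unadjusted p under 0.05 was found for 4 and a positive log2 fold change for 7 (negative for 2), against 4.80% and 48.4% of all tested genes. The list was chosen with earlier results of these data known, so these shares are a description only. The median was 0.35, with 0.75 within replicate number 1 and 0.15 within replicate number 2, against -0.01 over all tested genes. Foxp3, the factor of regulatory T cells, stood at 29.2 and 21.02 CPM in Batf3-/- cells, against 9.81 and 17.7 CPM in WT cells (log2 fold change 0.87, adjusted p = 0.593). Nr1h2, encoding the liver X receptor LXR-beta, stood at 86.7 and 83.0 CPM against 50.4 and 63.7 CPM in WT cells (log2 fold change 0.57, adjusted p = 0.708, and 0.23 with GC correction). Without WT replicate 2 both passed, at 1.36 for Foxp3 (adjusted p = 6.31e-04) and 0.75 for Nr1h2 (adjusted p = 0.0157, edgeR). Without WT replicate 1 they were 0.50 for Foxp3 (adjusted p = 0.617) and 0.40 for Nr1h2 (adjusted p = 0.647, edgeR).

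The receptors through which TH17-inducing cytokines act were all tested, 9 of 9, and 0 passed in edgeR, with 3 positive and 6 negative log2 fold changes (median -0.04). Il1r1, the IL-1 receptor gene, stood at 5.22 and 7.63 CPM in Batf3-/- cells, against 7.50 and 10.6 CPM in WT cells. Its log2 fold change was -0.53 (adjusted p = 0.958, edgeR). It was -0.25 without Batf3-/- replicate 1 or WT replicate 2, and -0.79 without Batf3-/- replicate 2. Receptors for the products of the program were partly silent: Il22ra1 was at 0 in all libraries, and Il17rc and Il22ra2 had at most 2 counts. Il10rb, the shared subunit of the IL-10 and IL-22 receptors, was at 24.2 and 24.95 CPM in Batf3-/- cells and 23.4 and 22.7 CPM in WT cells (log2 fold change 0.09). Il17ra stood at 44.2 and 52.7 CPM in Batf3-/- cells and 44.3 and 50.1 CPM in WT cells, and its log2 fold change of 0.03 changed sign with GC correction (-0.02).

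Other effector genes associated with TH17 cells were tested for 9 of 12, with 0 passing in edgeR, 5 positive and 4 negative (median 0.01). Il10, whose product dampens inflammation, was at 10.2 and 11.5 CPM in Batf3-/- cells, against 4.67 and 9.87 CPM in WT cells (log2 fold change 0.56, adjusted p = 0.958, 1.21 without WT replicate 2, adjusted p = 0.0128, and 0.12 without WT replicate 1, adjusted p = 0.990). Il1rn, encoding the IL-1 receptor antagonist, stood at 25.3 and 35.4 CPM in Batf3-/- cells, against 34.7 and 49.3 CPM in WT cells. Its log2 fold change was -0.48 (adjusted p = 0.958, edgeR), between -0.20 without WT replicate 2 and -0.73 without Batf3-/- replicate 2. Il24, which like Il22 belongs to the IL-10 cytokine family, was at 359 and 438 CPM in Batf3-/- cells, against 342 and 323 CPM in WT cells.

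**Figure D4:**
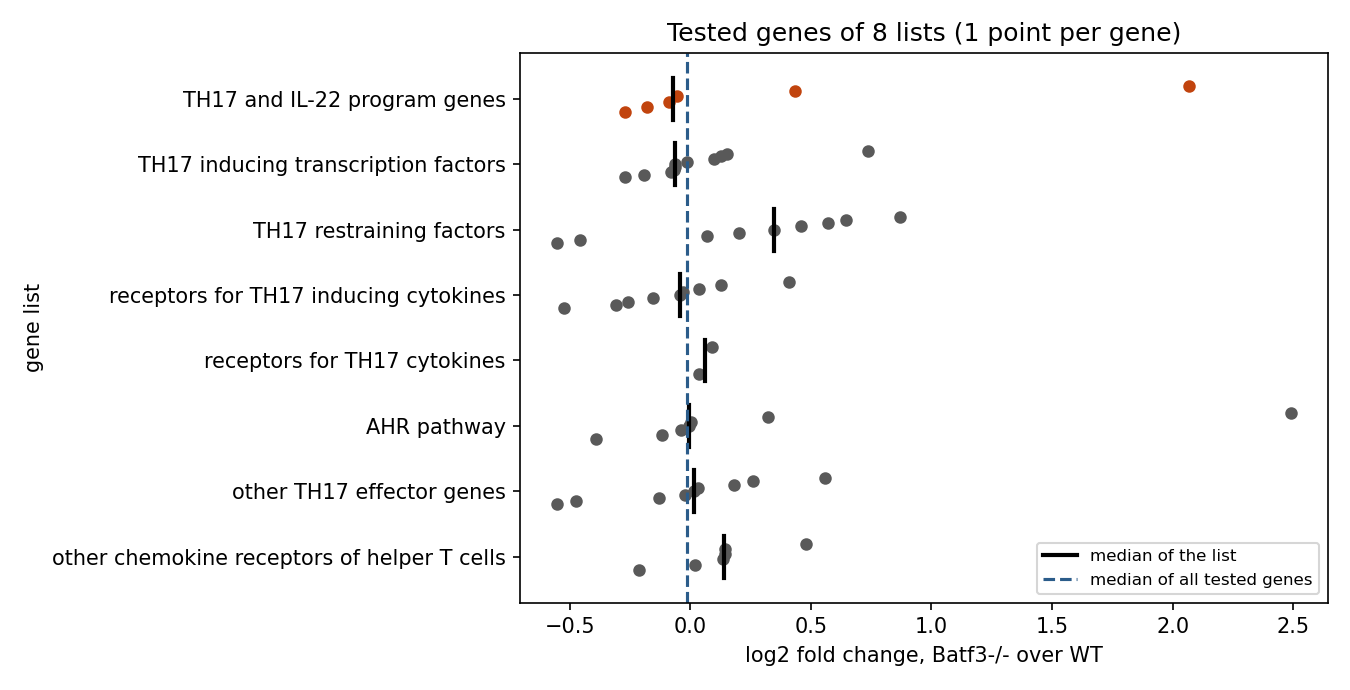
Fitted log2 fold changes, Batf3-/- over WT, of the tested genes of 8 lists, 1 point per gene, with the median of each list as a black bar and the median of all tested genes as a dashed line. Il22 at 2.07 and Cyp1a1 at 2.49 lie apart from their lists, and the median of the TH17 restraining factors lies at 0.35.

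Likeness to the pattern of Il22 over the 4 libraries was measured by the root mean square difference of log2 CPM after each gene's mean was subtracted. Among the 3 tested genes most like it were 4933430I17Rik (difference 0.23) and Tmem116 (0.26). 4933430I17Rik stood at 1.10 and 0.646 CPM in Batf3-/- cells, against 0.129 and 0.437 CPM in WT cells (log2 fold change 1.65, SE 0.676, adjusted p = 0.926, edgeR). Tmem116 stood at 0.703 and 0.449 CPM in Batf3-/- cells, against 0.0591 and 0.220 CPM in WT cells (log2 fold change 2.10, SE 0.868, adjusted p = 0.926, edgeR). Neither passed, and both had at most 35 counts in a library. Over 4 libraries such likeness is a description only.

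Il9, the cytokine that defines these cultures, stood at 932 and 772 CPM in Batf3-/- cells, against 978 and 1559 CPM in WT cells (log2 fold change -0.57, adjusted p = 0.898, edgeR). The change was -0.88 without WT replicate 1 (adjusted p = 4.61e-04) and -0.20 without WT replicate 2 (adjusted p = 0.495, edgeR). Among genes marking other producers of IL-22, Sox13, a gamma-delta T cell factor, had 1 to 7 counts, and Kit, found on innate lymphoid cells, stood at 1.73 and 4.59 CPM in Batf3-/- cells and 4.37 and 2.22 CPM in WT cells. Ncr1 was at 0 throughout. The 6 listed ILC3 markers summed to 74.4 and 77.3 CPM in Batf3-/- cells and 64.9 and 82.7 CPM in WT cells. Of this, Nrp1 gave 25.7 and 18.9 CPM in Batf3-/- cells and 17.0 and 26.7 CPM in WT cells. Most of the rest came from a listed marker that is not reported here, so the sum does not measure ILC3 RNA. The part of these markers in the Il22 levels was not tested.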

How the data were processed

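Per the labels' protocols, libraries from a stranded poly-A kit were read as 75-base single ends. The authors deposited expected counts per gene, which need not be whole. The submitters' processing notes name RSEM 1.2.25, STAR 2.5.0 and GRCm38. The annotation release and strand setting were not given in the sources used. Spike-in entries (92, all 0) were left out. Counts were rounded for testing in R 4.3.3 with edgeR 4.0.16: filterByExpr (minimum count 10, total 15), TMM (factors 0.982 to 1.02), robust dispersions, glmQLFit (legacy=FALSE), glmQLFTest on genotype alone, two-sided, Benjamini-Hochberg over 12135 genes at 0.05. Levels are TMM-scaled CPM of the deposited counts, and ratios within a replicate number add a prior count of 0.5 before the log2. A gene at 0 has a floor of 3 counts. Intervals are 95%. Positions, lengths and GC content came from GENCODE M21 on GRCm38 (12105 tested genes had a GC value), promoters from RefSeq. The pipeline was tested on simulated counts with known folds. DESeq2 1.42.0, limma-voom 3.58.1, other scalings and filters, left-out libraries, a replicate block and a GC correction were alternatives.

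The genes of the program and the other lists were chosen with earlier results of these data known. Named genes are the 9 members, Batf3, Iltifb, Foxp3, Il9, the 3 genes most like Il22, and from each list those past the threshold (up to 4) or else at most 2 with the smallest p. Further genes named with levels (Stat3, Ahrr, Cyp1b1, Nqo1, Il24, silent receptors and single markers) were picked after their values were seen. Of the gamma-delta T cell markers, 1 of 7 had a matching row. Some genes that this rule or the lists hold are not reported here.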

Additional observations from a re-analysis of the deposited data

How the results depend on the processing

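No gene of the program passed under DESeq2's size factors, upper-quartile scaling, either other filter, DESeq2, limma-voom, legacy=TRUE or GC correction, and Il22 kept a positive log2 fold change in all 14 alternatives (1.56 to 2.88, adjusted p 6.48e-06 to 1.000). With the replicate number as a block, Il22 passed (log2 fold change 2.05, adjusted p = 7.6e-05), as did Vdr, Foxp3 and Cyp1a1, so 1 member and 112 genes were called, against 0 and 16 without it; with GC correction as well, 1 member (Il22, 2.21) and 88 genes were called. The titles give both replicate 1 libraries the code E85 and both replicate 2 libraries E87, but the labels do not say that these pair samples, and same-number deviations correlated at 0.11. The blocked fit took the spread of most genes as known. DESeq2's test called 29 genes. Leaving out 1 library gave 18 to 553 genes and 0 to 1 members called, 1 without Batf3-/- replicate 2 or WT replicate 2. Ranges over left-out libraries, with changes of sign, were -0.54 to 0.0529 for Il21, -0.42 to 0.19 for Rora, -0.36 to 0.22 for Ahr, -0.0934 to 0.1585 for Il17ra and -0.5276 to 0.18 for Cxcr4. With GC correction Rora was at 0.0745 (0.0749 with the block), Ahr at 0.025 (0.0329) and Il17ra at -0.0249 (-0.0275). The causes were not tested. Counts of 0 to 7 limit Il17a, Il23r and Ccl20.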

Other observations

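Chemokine receptors of other helper T cell states were expressed beside Ccr6. Ccr4, found on TH2 and TH17 cells, stood at 328 and 334 CPM in Batf3-/- cells, against 266 and 332 CPM in WT cells, and Ccr7, a lymph node homing receptor, at 482 and 649 CPM against 527 and 588 CPM in WT cells. Of 7 such genes 6 were tested and 0 passed in edgeR, with 5 positive and 1 negative log2 fold changes (median 0.14). Ccr8, found on TH2 and regulatory T cells, stood at 226 and 206 CPM in Batf3-/- cells, against 125 and 184 CPM in WT cells (log2 fold change 0.48, adjusted p = 0.958, 0.79 without WT replicate 2, adjusted p = 0.00891, and 0.22 without WT replicate 1, adjusted p = 0.924). Cxcr4 stood at 118 and 127 CPM in Batf3-/- cells, against 177 and 108 CPM in WT cells (log2 fold change -0.21, and 0.18 without WT replicate 1).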
